A study of Homo sapiens with 9 samples.

Results

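The transcripts of 10 genes were followed: IL11, IL6, LIF, IL1A, IL1B, IL24, CXCL1, CXCL2 and CCL2, which encode secreted inflammatory cytokines and chemokines, and IL6ST, which encodes a receptor subunit shared by several of them. The genes were found by their symbols among the 48162 genes of the count and FPKM tables. Each symbol matched 1 gene, and 7 of the 10 had enough counts to be tested. IL11 was chosen by its count-based log2 fold change between shp16 and shCont, which earlier results of these data had shown to be large, and the other members were added as related signals, so the members' differences from shCont are given as a description and were not tested. The data are levels of RNA, and no secreted protein was measured in them.

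The libraries came from SKMEL28, an established human melanoma cell line grown in DMEM with 5% serum. shCont cells received lentivirus carrying a hairpin RNA against GFP, a gene that human cells lack. shp16 cells received a hairpin against p16, the inhibitor of cyclin-dependent kinases encoded by CDKN2A, and shp16+shATR cells received hairpins against p16 and against ATR, a kinase of the DNA damage response. All 3 groups carried lentivirus and were selected with puromycin at 1 ug/ml for 3 days. Each group had 3 libraries, and nothing in the labels says that they came from separate cultures. The paper's legend for its LSS mRNA levels calls the replicates technical, and RNA sequencing is the only mRNA assay in its methods. Whether those levels came from these libraries is not stated outright. The p-values and SDs given here therefore measure only the spread between these libraries, which may well be technical. The study made more than 1 ATR hairpin, and the one used for these libraries is not stated, nor is it stated whether shp16 cells also carried a second control virus. Both knockdowns were made in 1 cell line. RNA of both targeted genes was still present in the cells that received the hairpins. The difference in CDKN2A RNA between shp16 and shCont was not called, while that between shp16+shATR and shCont was.

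IL11, IL6 and LIF bind receptor subunits of their own and then share the signalling subunit gp130, the product of IL6ST, which passes the signal to JAK kinases and the transcription factor STAT3. IL1A and IL1B act through another receptor on the NF-kB pathway and induce further cytokines. IL24 is a cytokine of the IL10 family that was first found in differentiating melanoma cells, CXCL1 and CXCL2 attract neutrophils, and CCL2 attracts monocytes. Many of these factors are known from the secretory programme of senescent cells and from inflamed tumours, and AP-1 and NF-kB sites in their promoters are a textbook route to their induction.

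Promoter sequences are shown for the 3 members with the lowest fitted change, IL11, IL1B and IL24, and for the paralogues CXCL1 and CXCL2, of which 1 was expressed and the other was near 0. Each run is the 250 bases that end at the base before the start site, read 5′ to 3′ on the gene's strand, from RefSeq on GRCh38.p14. The windows are chr19:55370464-55370713 on the minus strand for IL11, chr2:112836780-112837029 on the minus strand for IL1B, chr1:206897193-206897442 on the plus strand for IL24, chr4:73869143-73869392 on the plus strand for CXCL1 and chr4:74099196-74099445 on the minus strand for CXCL2. Capitals mark matches to the AP-1 motif TGANTCA, the STAT motif TTCNNNGAA, the CRE motif TGACGTCA or the kappaB motif, each searched on both strands.
IL11: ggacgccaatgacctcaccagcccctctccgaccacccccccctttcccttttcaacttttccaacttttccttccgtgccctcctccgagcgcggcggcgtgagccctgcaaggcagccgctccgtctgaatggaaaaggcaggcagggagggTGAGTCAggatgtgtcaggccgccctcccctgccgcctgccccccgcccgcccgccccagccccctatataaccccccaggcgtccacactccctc
IL1B: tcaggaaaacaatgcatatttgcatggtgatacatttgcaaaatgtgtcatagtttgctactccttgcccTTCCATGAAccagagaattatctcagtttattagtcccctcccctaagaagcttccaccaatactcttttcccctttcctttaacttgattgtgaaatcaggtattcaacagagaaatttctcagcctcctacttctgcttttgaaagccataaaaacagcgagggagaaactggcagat
IL24: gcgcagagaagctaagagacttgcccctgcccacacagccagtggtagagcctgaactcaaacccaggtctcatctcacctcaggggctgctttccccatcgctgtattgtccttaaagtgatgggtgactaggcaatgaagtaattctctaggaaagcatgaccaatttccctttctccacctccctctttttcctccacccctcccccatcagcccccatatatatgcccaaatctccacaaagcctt
CXCL1: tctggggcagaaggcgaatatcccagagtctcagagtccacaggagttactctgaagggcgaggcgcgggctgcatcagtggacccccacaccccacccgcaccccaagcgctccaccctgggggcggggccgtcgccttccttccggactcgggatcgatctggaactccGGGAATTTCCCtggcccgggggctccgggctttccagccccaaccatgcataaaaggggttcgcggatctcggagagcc
CXCL2: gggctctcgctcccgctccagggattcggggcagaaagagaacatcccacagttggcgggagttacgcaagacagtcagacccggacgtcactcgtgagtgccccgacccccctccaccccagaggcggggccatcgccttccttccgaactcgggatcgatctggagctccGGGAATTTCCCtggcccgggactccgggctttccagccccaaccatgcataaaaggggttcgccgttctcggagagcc
IL11 holds an AP-1 match from -96 to -90, counted back from the start site. IL1B holds a STAT match from -180 to -172. IL24 holds no match to the 4 motifs in this window, and neither does IL6ST. Of the members not printed, IL6 holds the kappaB motif from -73 to -64, and IL1A holds the AP-1 motif from -12 to -6 before 1 of its 2 start sites and from -105 to -99 and from -55 to -49 before the other. The 2 IL1A windows overlap, and the match from -12 to -6 is the same stretch of bases as the match from -105 to -99. CXCL1 and CXCL2 both hold the kappaB motif, as a pair of matches that overlap on opposite strands, from -79 to -69 in CXCL1 and from -78 to -68 in CXCL2, and their windows share an identical run of 42 bases. Among 35093 promoter windows of this length, 6.57% held the AP-1 motif, 6.57% the STAT motif, 1.65% the CRE motif and 5.20% the kappaB motif. The tables of promoters matched 8 of the 10 genes, without LIF and CCL2. A match describes the letters only, and binding was not measured.

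The libraries held 17314662 to 23588174 counts. shCont replicate 1 stood apart from the other libraries: the coefficient of variation between replicates that edgeR estimated was 0.149 with it and 0.0903 without it. ATR, the targeted gene, was at 39.9 to 41.0 CPM (counts scaled by library total and edgeR's TMM factor) in shp16+shATR and at 83.4 to 93.5 CPM in shp16. The log2 fold change was -1.12, with an adjusted p of 0.0128 in edgeR's quasi-likelihood test. This call was lost in 4 of 9 fits that each left out 1 library, with an adjusted p up to 0.0707 without shp16+shATR library b. ATR was also at 45.9 CPM in shCont replicate 1 against 93.5 and 96.4 CPM in the other shCont libraries. CDKN2A, which encodes both p16 and another protein, had a log2 fold change of -0.48 between shp16 and shCont (edgeR, adjusted p = 0.0723). Without shCont replicate 1 it was -0.26, and the p16 knockdown was not called in that comparison at the level of this gene's RNA. In shp16+shATR against shCont, CDKN2A was called lower, by 0.57 (edgeR, adjusted p = 0.0263), with a log2 fold change of -0.35 without shCont replicate 1. The 8 melanocyte markers summed to between 2558 and 5455 FPKM (fragments scaled by gene length and library total), with the lowest sum in shp16 replicate 1 and 4014 FPKM as the next lowest. Leukocyte markers, 7 in all, summed to at most 0.727 FPKM, with PTPRC and CD3E at 0 counts in every library. The 4 keratinocyte markers summed to at most 0.0962 FPKM in shCont, 3.05 to 6.63 FPKM in shp16 and 1.35 to 4.15 FPKM in shp16+shATR, with all 3 that could be tested higher in both groups than in shCont by edgeR, and they move with the same groups as the cytokines below; their part in the results was not tested. KRT5 and KRT1 had 0 counts in every shCont library, while TP63, the defining transcription factor of such cells, summed to at most 13 counts in a group. The endothelial and fibroblast lists ranged from 0.402 to 0.777 FPKM and from 8.33 to 15.3 FPKM in their sums. Of 4 fibroblast markers tested, 2, COL1A2 and DCN, were called higher in shp16+shATR against shCont and none in shp16 against shCont (edgeR at the adjusted p; 2 at the unadjusted p and 1 by DESeq2), with medians of 2.13 and 1.85 for the log2 fold changes of the 4. Of 8 melanocyte markers, 2 were called lower in shp16 than in shCont, and the median log2 fold change of the 8 was -0.12. The part of these lists in the results was not tested. In bulk RNA, fewer cells of a type and less RNA per cell cannot be told apart.

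IL11, a cytokine that signals through IL11RA and gp130, was high in shCont and low in both other groups. Its gene (ENSG00000095752) spans 55875757 to 55881831 of chromosome 19, on the minus strand, by the GRCh37 coordinates of the deposited tables. Its level was 11.2, 10.5 and 9.89 FPKM in shCont replicates 1, 2 and 3. In shp16 it was 0.384, 0.597 and 0.504 FPKM in that order, and in shp16+shATR it was 0.253, 0.385 and 0.706 FPKM. Every shCont library stood above every other library, with no overlap, while the shp16 and shp16+shATR libraries overlapped. The mean was 10.5 ± 0.649 FPKM (SD, n = 3) for shCont and 0.495 ± 0.107 FPKM (SD, n = 3) in shp16, or 4.71% of the shCont mean. The sum of counts behind these means was 1499 for shCont, 69 for shp16 and 62 for shp16+shATR, so the depth is ample in shCont and modest in the other groups. The log2 fold change in shp16 against shCont was -4.40 with a standard error of 0.26, the 20th lowest of 15776 genes. IL1B was the 49th lowest, IL24 the 66th and LIF the 150th. Of the other tested members, IL1A was the 572nd lowest, CXCL1 the 1070th and IL6ST the 9973rd.

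Between shp16+shATR and shp16, IL11 had a log2 fold change of -0.13 with a standard error of 0.33 (edgeR's quasi-likelihood test, adjusted p = 0.872). This comparison did not choose the gene, but it shares the shp16 libraries with the one that did. The exact permutation test of the FPKM values, two-sided, gave p = 0.8, where 0.1 is the smallest p that 3 against 3 libraries allow. The standard error leaves room for a moderate difference in either direction, and the sign turned when shp16 replicate 2 was left out (0.0012) or shp16+shATR library a was left out (0.13). Against shCont, the shp16+shATR libraries were at 4.26% of the shCont mean, with a log2 fold change of -4.53.

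LIF, a gp130 cytokine that binds LIFR, was also lower in both knockdown groups, by less than IL11. Its gene (ENSG00000128342) spans 30636436 to 30642840 of chromosome 22, on the minus strand. It was at 5.93, 6.55 and 5.98 FPKM in shCont, at 0.982, 1.79 and 1.75 FPKM in shp16 and at 2.49, 3.02 and 2.14 FPKM in shp16+shATR. The 3 groups did not overlap, and shp16+shATR lay between the other groups. Its mean was 24.5% of the shCont mean in shp16 and 41.5% in shp16+shATR. The log2 fold change in shp16 against shCont was -2.03 with a standard error of 0.19, and -1.83 without shp16 replicate 1, its lowest library. LIF rose in shp16+shATR against shp16, by 0.76 on the log2 scale with a standard error of 0.19 (edgeR's quasi-likelihood test, adjusted p = 0.0365), with every shp16+shATR library above every shp16 library. This call was close to the threshold: it held in 7 of 18 alternative settings, whose adjusted p ranged from 0.00196 to 0.178. Leaving out shCont replicate 2, any shp16 library or any shp16+shATR library ended it, with adjusted p from 0.0573 to 0.178. LIF is overlapped on the other strand by 2 genes, of which MGC20647 had 14, 6 and 12 counts in the 3 groups, against 1514, 365 and 613 for LIF.

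IL6, the founding gp130 cytokine, was close to absent as RNA in all groups. Its gene (ENSG00000136244) spans 22765503 to 22771621 of chromosome 7, on the plus strand. It had 5, 0 and 1 counts in the shCont libraries, 4 in all 3 shp16 libraries together and 4 in all 3 shp16+shATR libraries together, or at most 0.139 FPKM. A difference between groups was not detectable at this depth, and the gene was not tested.

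IL1B, an IL1 cytokine that is cut by caspase-1 before release, was the member with the next lowest fitted change after IL11. Its gene (ENSG00000125538) spans 113587328 to 113594480 of chromosome 2, on the minus strand. It was at 11.4, 8.50 and 10.7 FPKM in shCont, at 1.28, 0.925 and 1.23 FPKM in shp16 and at 1.70, 1.29 and 1.67 FPKM in shp16+shATR. All shCont libraries stood far above the rest, and the lowest shp16+shATR library lay just above the highest shp16 library. The shp16 mean was 11.2% and the shp16+shATR mean 15.2% of the shCont mean. The log2 fold change against shCont was -3.15 with a standard error of 0.21 in shp16 and -2.72 with a standard error of 0.21 in shp16+shATR. Between shp16+shATR and shp16 it was 0.42 with a standard error of 0.23, which did not pass (edgeR, adjusted p = 0.351), and the exact permutation test gave p = 0.1, the smallest it can give.

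IL1A, the IL1 cytokine that also acts from inside the cell and at its surface, was low throughout. Its gene (ENSG00000115008) spans 113531492 to 113542167 of chromosome 2, on the minus strand, beside IL1B. It was at 0.0599, 0.402 and 0.213 FPKM in shCont, at 0.0918, 0.160 and 0.0471 FPKM in shp16 and at 0.245, 0.103 and 0.237 FPKM in shp16+shATR. All 3 groups overlapped. With 28, 13 and 24 counts per group the fitted values were imprecise: -1.08 with a standard error of 0.70 for shp16 against shCont, and 0.91 with a standard error of 0.71 for shp16+shATR against shp16 (edgeR, adjusted p = 0.536). Neighbouring IL1 genes on chromosome 2 thus differed in level by a large factor in shCont, 10.2 FPKM for IL1B against 0.225 FPKM for IL1A.

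IL24, the IL10-family cytokine, had the highest level of the secreted members in shCont and had the smallest adjusted p of the members between the knockdown groups. Its gene (ENSG00000162892) spans 207070788 to 207077484 of chromosome 1, on the plus strand. It was at 16.7, 17.4 and 14.01 FPKM in shCont, at 2.17, 2.09 and 2.36 FPKM in shp16 and at 4.89, 4.88 and 4.68 FPKM in shp16+shATR. The 3 groups did not overlap, and the spread within each knockdown group was small beside the distance between them. The mean was 13.8% of the shCont mean in shp16 and 30.02% in shp16+shATR. The log2 fold change against shCont was -2.85 with a standard error of 0.14 in shp16 and -1.73 with a standard error of 0.13 in shp16+shATR. IL24 rose in shp16+shATR against shp16, by 1.12 on the log2 scale with a standard error of 0.14, or 2.17-fold (edgeR's quasi-likelihood test, adjusted p = 0.00127). The call held in all 18 alternative settings, with log2 fold changes from 0.86 to 1.16 and adjusted p up to 0.0164. The exact permutation test gave p = 0.1, the smallest it can give.

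**Figure D1:**
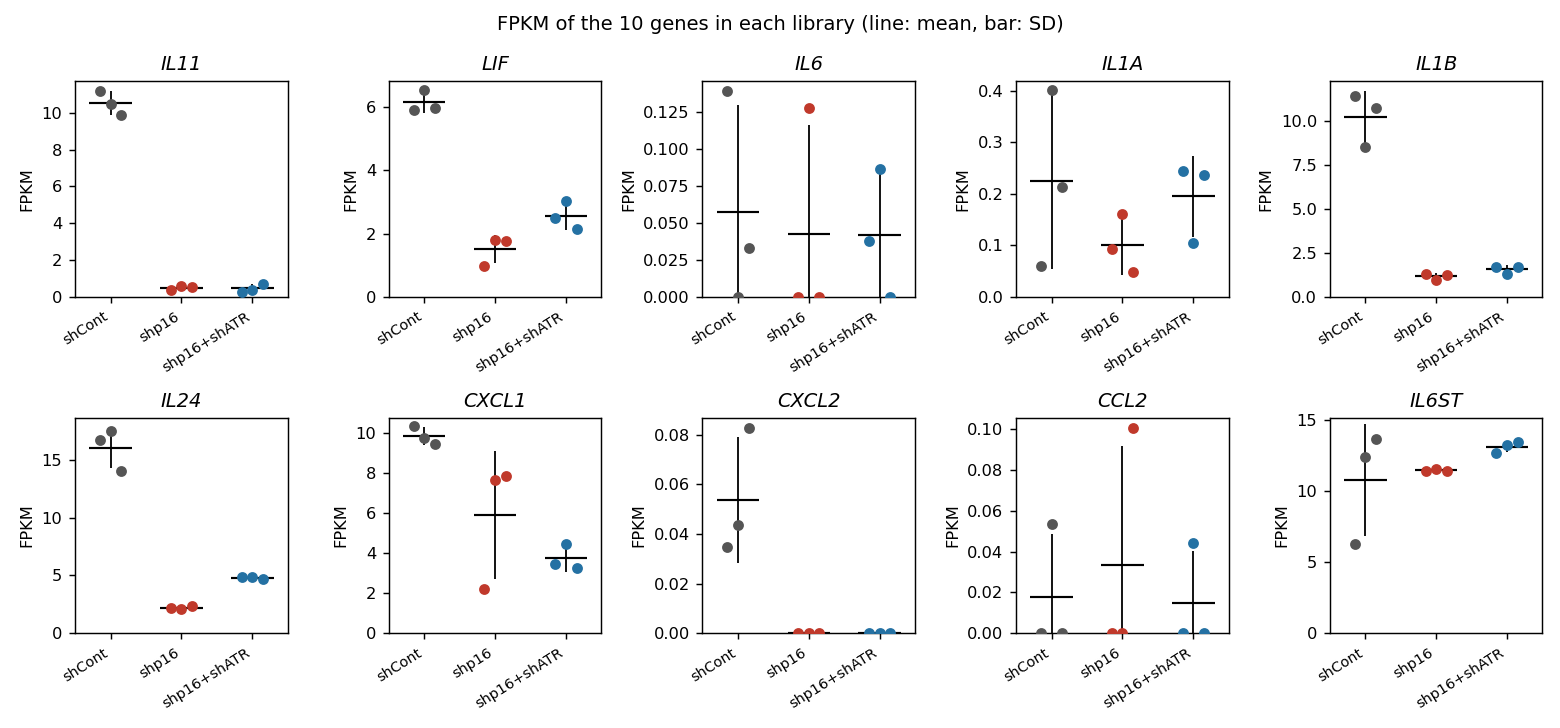
FPKM of each gene (vertical axes from 0, with a scale of their own) in the 3 libraries of shCont, shp16 and shp16+shATR; points are libraries, horizontal lines group means and vertical bars the SD, which stop at 0. IL11, LIF, IL1B and IL24 are highest in all shCont libraries, LIF and IL24 lie between in shp16+shATR, and 1 shp16 library of CXCL1 and 1 shCont library of IL6ST stand apart.

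CXCL1, a chemokine that binds CXCR2 and was first known as a growth factor of melanoma cells, varied most between the shp16 libraries. Its gene (ENSG00000163739) spans 74735110 to 74736959 of chromosome 4, on the plus strand. It was at 10.4, 9.77 and 9.46 FPKM in shCont, at 2.22, 7.67 and 7.84 FPKM in shp16 and at 3.47, 4.48 and 3.26 FPKM in shp16+shATR. Every shCont library lay above every library of the other groups, but shp16 replicate 1 lay below all shp16+shATR libraries and the other shp16 libraries lay above them. That library also had the lowest sum of melanocyte markers, and the part of this in the result was not tested. The log2 fold change in shp16 against shCont was -0.75 with a standard error of 0.32, and -0.38 without shp16 replicate 1. Against shCont, shp16+shATR had -1.39 with a standard error of 0.33. Between shp16+shATR and shp16 the value was -0.64 with a standard error of 0.34 and did not pass (edgeR's quasi-likelihood test, adjusted p = 0.326). Without shp16 replicate 1 it was -1.01 with an adjusted p of 0.0139 in the same test, and with no filter on low counts it was -0.66 with an adjusted p of 0.0375.

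CXCL2, a close paralogue of CXCL1 whose promoter holds the same kappaB motif, was near 0. Its gene (ENSG00000081041) spans 74962752 to 74965010 of chromosome 4, on the minus strand. It had 1, 1 and 2 counts in the shCont libraries and 0 in all 6 others. A count of 0 over the shp16 libraries allows up to 3 counts, or 0.0491 CPM by library totals without the TMM factor. In shCont its mean was 0.0538 FPKM against 9.86 FPKM for CXCL1. How reads that match both genes were assigned is not given in the sources used here, so the split between them is uncertain. CCL2, the monocyte chemokine (ENSG00000108691, plus strand of chromosome 17, from 32582237 to 32584222), had 1, 2 and 1 counts in the 3 groups. Neither gene was tested, and no difference was detectable at this depth.

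IL6ST, which encodes gp130 and is the receptor side of IL11, LIF and IL6, did not share the pattern of its ligands. Its gene (ENSG00000134352) spans 55230923 to 55290821 of chromosome 5, on the minus strand. It was at 6.28, 12.4 and 13.7 FPKM in shCont, at 11.4, 11.5 and 11.4 FPKM in shp16 and at 12.7, 13.2 and 13.4 FPKM in shp16+shATR. shCont replicate 1 was the lowest of the 9 libraries, and the other shCont libraries lay within the range of the knockdown groups or just above it. The log2 fold change in shp16 against shCont was 0.11 with a standard error of 0.20, and -0.15 without shCont replicate 1, so its sign rests on that library. Every library of shp16+shATR was above those of shp16, by 0.19 on the log2 scale with a standard error of 0.20, which did not pass (edgeR's quasi-likelihood test, adjusted p = 0.677; exact permutation test p = 0.1, the smallest it can give).

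**Figure D2:**
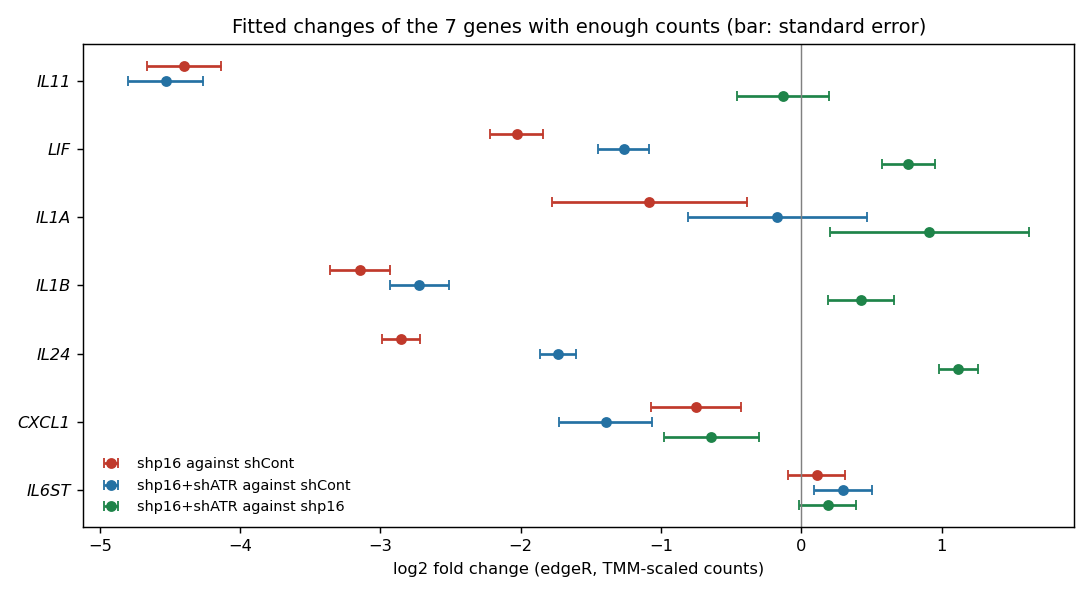
Fitted log2 fold changes (horizontal axis) of the 7 tested genes, with the standard error as bars, for shp16 against shCont (red), shp16+shATR against shCont (blue) and shp16+shATR against shp16 (green). IL11 is near -4.40 and -4.53 in the comparisons with shCont and near 0 between the knockdown groups, IL24 stands at 1.12 between them, and IL6ST is close to 0 in all 3.

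By level per length, the order of the members differed between the groups. In shCont, IL24 at 16.04 ± 1.80 FPKM stood above all others without overlap, and IL6ST, IL11, IL1B and CXCL1, with means from 9.86 to 10.8 FPKM, overlapped with each other. LIF followed at 6.15 ± 0.349 FPKM, below IL11, IL1B and CXCL1 without overlap. In shp16, IL6ST led with a mean of 11.4 FPKM, CXCL1 came next at 5.91 ± 3.20 FPKM and overlapped with IL24 at 2.21 ± 0.143 FPKM, and LIF and IL1B overlapped. IL11 was below all of these, without overlap. In shp16+shATR the order was IL6ST, IL24, CXCL1, LIF, IL1B and IL11, with means of 13.1, 4.81, 3.74, 2.55, 1.55 and 0.448 FPKM, and no neighbours in that order overlapped. IL11, which overlapped with IL1B and CXCL1 in shCont, was the lowest of these 6 genes in both other groups.

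Counted over the 7 tested members as a description, the libraries of shp16 lay below those of shCont without overlap in 5, beside 16.7% of all 15776 genes tested, and 4 were at least 4-fold lower, beside 0.97% of all genes. In shp16+shATR against shCont, 5 did not overlap on the lower side, beside 21.6%. These comparisons share the shCont libraries, and the first of them chose IL11, so nothing is read from these counts.

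In shp16+shATR against shp16, IL24 and LIF were called higher, 2 of 7 beside 2.73% of all genes. None was called lower by edgeR at the adjusted or unadjusted p or by DESeq2, beside 3.49% of all genes, although CXCL1 was called lower without shp16 replicate 1 and with no filter on low counts. LIF, IL1B, IL24 and IL6ST, 4 of the 7, were higher without overlap, beside 17.9% of all genes. The median log2 fold change of the 7 was 0.42, beside 0.00 over all genes tested. The shp16 libraries are shared by this comparison and by shp16 against shCont, which chose IL11. Values that were low by chance in shp16 would raise the changes here, so these counts are not independent of the choice. The difference between the change of IL24 and that of IL11 was not tested.

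**Figure D3:**
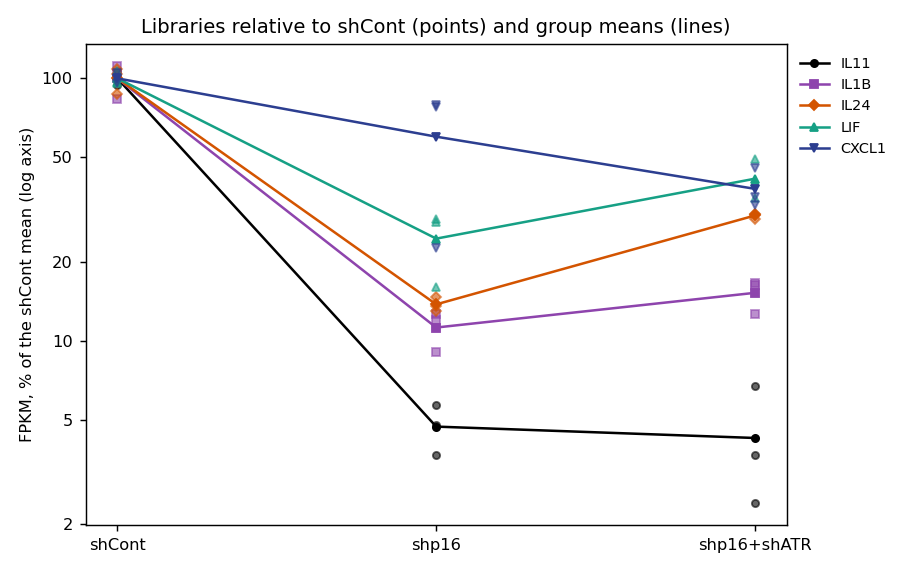
FPKM as a percentage of the gene's shCont mean (vertical log axis) in shCont, shp16 and shp16+shATR; small points are libraries and lines join the group means. IL11 is at 4.71% and 4.26% in the knockdown groups, IL24 goes from 13.8% to 30.02% and LIF from 24.5% to 41.5%, and CXCL1 is at 59.9% and 37.9%.

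The pathway genes around the members were described from lists chosen with earlier results of these data known. With the members left out, 88 of 130 list genes were tested. Of these, 10 rose and 15 fell in shp16 against shCont, and 9 rose and 6 fell in shp16+shATR against shp16, by edgeR's quasi-likelihood test with adjustment over all 15776 genes. Of all genes tested, 7.23% rose and 7.59% fell in shp16 against shCont, while 2.73% rose and 3.49% fell between the knockdown groups. Against shCont, 14 rose and 23 fell in shp16+shATR, beside 10.9% and 12.7% of all genes. The median log2 fold change of the list genes was -0.08 in the first and in the second of these comparisons, beside -0.02 and 0.00 over all genes. The first and second comparison share the shp16 libraries, so a value off by chance in shp16 would move a gene in opposite directions.

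The list of receptors of the members also holds receptors of other gp130 ligands and an IL1 antagonist. Of its genes, 7 of 17 were tested, and in shp16 against shCont 1 rose and 1 fell. IL6R, the receptor subunit that binds IL6, rose from 3.70 to 7.28 FPKM in the group means, a log2 fold change of 0.99 (edgeR, adjusted p = 0.000444). IL27RA, the receptor subunit for IL27 that pairs with gp130, fell by 0.95 on the log2 scale (edgeR, adjusted p = 0.01001; 0.0513 without shp16 replicate 3). IL27 is not a member. IL11RA was at 1.62, 1.28 and 1.56 FPKM in the 3 groups and did not pass in either comparison (edgeR, adjusted p = 0.581 and 0.726), so the receptor that binds IL11 was detected in all groups. LIFR, with 2, 7 and 20 counts, had too few to be tested. OSMR and IL1RAP had log2 fold changes of -0.46 and -0.29 in shp16 against shCont that did not pass (edgeR, adjusted p = 0.0660 and 0.271), but without shCont replicate 1 both passed, at -0.63 and -0.49. IL1R1, which IL1A and IL1B bind, was at 0.178 FPKM in shCont. None of the 7 was called in shp16+shATR against shp16, by edgeR at the adjusted or unadjusted p or by DESeq2. Of the other ligands that use gp130, 2 of 7 were tested, and neither passed in these comparisons, by edgeR at the adjusted or unadjusted p or by DESeq2.

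In the JAK-STAT list, 2 of 13 genes rose in shp16 against shCont. STAT3, the factor that gp130 signals activate, was at 11.995 to 15.6 FPKM in shCont, 18.2 to 20.3 FPKM in shp16 and 13.4 to 13.5 FPKM in shp16+shATR. It rose by 0.47 in the first comparison and fell by 0.54 in shp16+shATR against shp16 on the log2 scale (edgeR, adjusted p = 0.0196 and 0.0186), although the calls were lost in 2 and 5 of 9 leave-one-out fits, up to 0.0687 without shp16 replicate 1 and 0.107 without shp16+shATR library a. JAK2 rose by 1.06 in shp16 against shCont (edgeR, adjusted p = 0.0232), with shCont from 1.61 to 4.51 FPKM. That call was lost in 3 of 9 leave-one-out fits, with an adjusted p up to 0.0834 without shp16 replicate 1. SOCS3, a feedback inhibitor that STAT3 induces, was at 1.24, 0.936 and 0.842 FPKM and did not pass (edgeR, adjusted p = 0.204 and 0.757). Of 11 STAT3 targets tested, HIF1A fell by 0.84 (edgeR, adjusted p = 0.00199) in shp16 against shCont. TIMP1 fell by 1.22 (edgeR, adjusted p = 0.0349) in the same comparison, a call lost in 5 of 9 leave-one-out fits, up to 0.0611 without shp16 replicate 1. At edgeR's adjusted p 2 of the 11 fell, beside 7.59% of all genes. Of the 11, 5 were lower at edgeR's unadjusted p and 5 by DESeq2, and none rose by either or at the adjusted p. Over all 15776 genes tested, DESeq2 called 2932, of which 1468 were higher. The share of all genes at the unadjusted p was not counted, so nothing is read from the count at that p. The median log2 fold change of the 11 was -0.40, beside -0.02 over all genes. In shp16+shATR against shp16 none was called by edgeR, while 2 were higher and 1 lower at the unadjusted p, and 1 was higher by DESeq2.

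In the NF-kB list, 1 of 16 genes rose and 2 fell in shp16 against shCont. NFKBIA, an inhibitor that NF-kB itself induces, fell by 0.63 and TRAF1, a signal adaptor, by 0.81, while NFKBIE, another inhibitor, rose by 0.69 (edgeR, adjusted p = 0.0213, 0.0492 and 0.0203). Each of these calls was lost in 3 to 7 of 9 leave-one-out fits, with the highest adjusted p of 0.0750, 0.156 and 0.0736, without shp16 replicates 3, 1 and 2. TNFAIP3, a feedback inhibitor of NF-kB, fell by 0.54 in shp16+shATR against shp16 (edgeR, adjusted p = 0.0186). That call was lost in 5 of 9 leave-one-out fits, with an adjusted p up to 0.106 without shp16+shATR library b. In the list for IL1 processing and signalling, IRAK1, a kinase below the IL1 receptor, rose by 0.61 in shp16 against shCont (edgeR, adjusted p = 0.0131; 0.0505 without shCont replicate 2). NLRP3, the inflammasome sensor, rose by 1.23 in shp16+shATR against shp16 (edgeR, adjusted p = 0.00903), from 0.475 to 1.11 FPKM, in all leave-one-out fits.

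AP-1 subunits, whose motif stands in the IL11 and IL1A promoters, differed among themselves. JUN was at 11.5 to 12.5 FPKM in shCont, 17.004 to 21.2 FPKM in shp16 and 12.2 to 13.2 FPKM in shp16+shATR. In shp16 against shCont JUN rose by 0.72 on the log2 scale (edgeR, adjusted p = 0.000570). In shp16+shATR against shp16 it fell by 0.64 (edgeR, adjusted p = 0.00357). FOS rose by 0.48 and fell by 0.72 in the same comparisons (edgeR, adjusted p = 0.0144 and 0.00357). The rise of FOS was lost in 2 of 9 leave-one-out fits, at 0.0717 without shp16 replicate 3. FOSL1 went the other way, at 50.8, 36.9 and 60.3 FPKM in the group means, with changes of -0.46 and 0.71 (edgeR, adjusted p = 0.0483 and 0.0139), each lost in 6 of 9 leave-one-out fits, up to 0.134 without shp16 replicate 2 and 0.0725 without shp16+shATR library a. FOSB fell by 1.66 in shp16+shATR against shp16 (edgeR, adjusted p = 0.00427). FOSL2 had changes of -0.46 and -0.44 (edgeR, adjusted p = 0.0178 and 0.0380), with the calls lost in 3 and 7 of 9 leave-one-out fits, up to 0.0784 without shp16 replicate 2 and 0.203 without shp16+shATR library a.

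**Figure D4:**
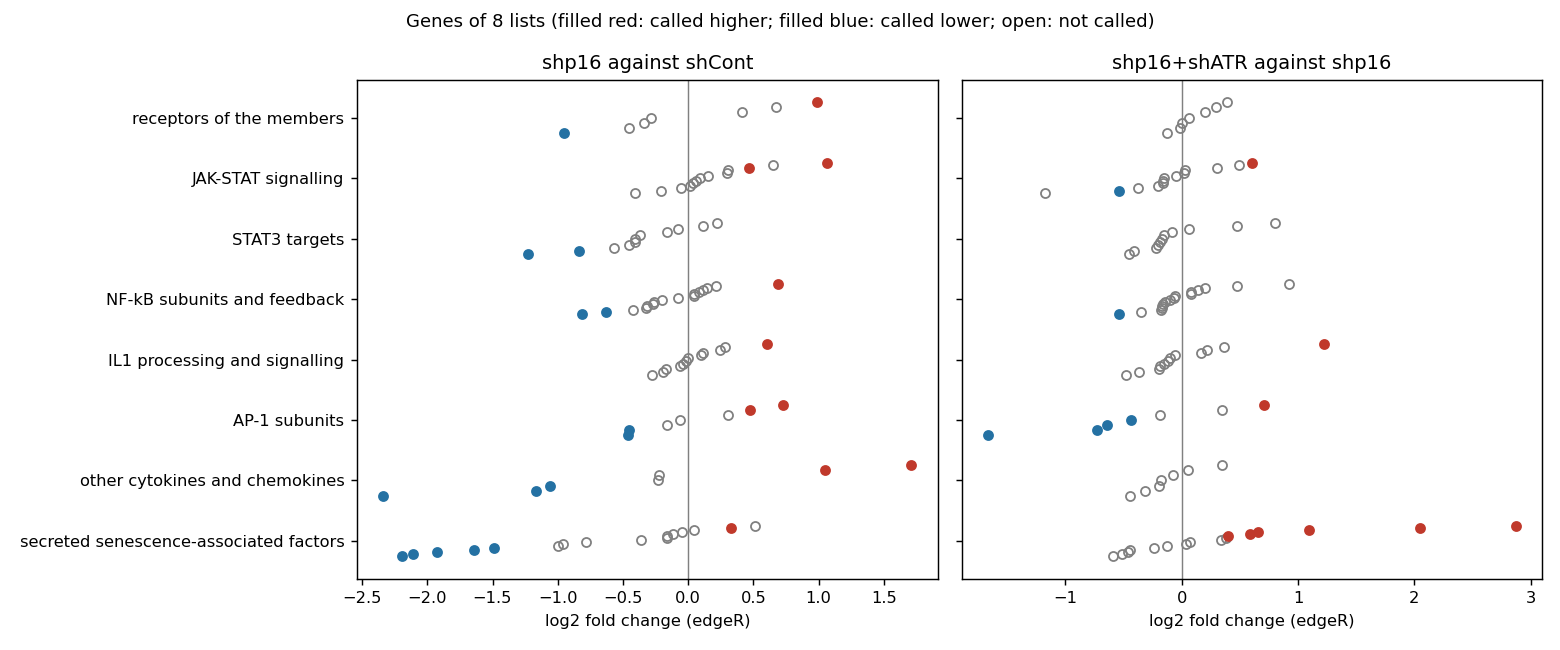
Log2 fold changes (horizontal axes) of the tested genes of 8 lists (rows) in shp16 against shCont (left) and shp16+shATR against shp16 (right); filled points passed edgeR's test at an adjusted p of 0.05, red for higher and blue for lower, and open points did not pass. Most genes of the signalling lists lie between -1 and 1, while the cytokine and senescence lists hold the lowest values on the left, with CXCL8 at -2.34, and the senescence list holds 6 filled red points on the right.

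Of 26 other cytokines and chemokines, 7 were tested, and 3 fell and 2 rose in shp16 against shCont. CXCL8, a neutrophil chemokine listed in the tables under its older symbol and matched by its identifier (ENSG00000169429), was at 53.0, 59.6 and 58.3 FPKM in shCont, at 11.1, 11.5 and 11.0 FPKM in shp16 and at 9.86, 10.5 and 9.57 FPKM in shp16+shATR. It fell by 2.34 on the log2 scale with a standard error of 0.10 in shp16 against shCont (edgeR, adjusted p = 1.12e-07), and its value of -0.17 in shp16+shATR against shp16 did not pass (adjusted p = 0.363). CXCL8 was thus more abundant per length than any member in shCont, and its groups followed the order seen for IL11. CCL20, which attracts lymphocytes, fell by 1.16 (edgeR, adjusted p = 0.00441), and IL7, a lymphocyte growth factor named after its value was seen, by 1.06 (edgeR, adjusted p = 0.0135; 0.0541 without shp16 replicate 3). CX3CL1 rose by 1.05 and CSF1, the macrophage growth factor, by 1.71 (edgeR, adjusted p = 0.000423 and 0.00525). None of the 7 was called in shp16+shATR against shp16 by edgeR or DESeq2, and 2 were lower at an unadjusted p of 0.05. CXCL3, a further paralogue of CXCL1, had 29, 8 and 3 counts and was not tested.

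Of 23 secreted factors known from senescent cells, 16 were tested, and 5 fell and 1 rose in shp16 against shCont. The proteases MMP3 and MMP1 fell by 2.11 and 1.93, the urokinase receptor PLAUR by 1.64 and IGFBP3, which binds insulin-like growth factors, by 1.49 on the log2 scale (edgeR, adjusted p = 0.000483, 2.58e-05, 0.000352 and 5.66e-06). The fifth, INHBA, named after its value was seen, fell by 2.19 from a level of at most 0.365 FPKM (edgeR, adjusted p = 0.00656). Between shp16+shATR and shp16, 6 of the 16 rose. PLAUR went from 14.9 to 31.6 FPKM, a rise of 1.10 (edgeR, adjusted p = 0.00992; 0.0518 without shp16+shATR library b). SERPINE2, a protease inhibitor, rose by 0.58 from 133 to 200 FPKM (edgeR, adjusted p = 0.00504), in all leave-one-out fits. ANGPTL4 rose by 2.05 and MMP1 by 0.65 (edgeR, adjusted p = 0.0313 and 0.0489), with the calls lost in 7 and 8 of 9 leave-one-out fits, up to 0.127 without shp16+shATR library c and 0.160 without library b. TIMP2, an inhibitor of matrix proteases, rose in both comparisons, by 0.33 and 0.40, with both calls near the threshold (edgeR, adjusted p = 0.0435 and 0.0339), lost in 8 and 7 of 9 leave-one-out fits, up to 0.143 without shCont replicate 2 and 0.157 without shp16+shATR library a.

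The genes whose log2 CPM followed that of IL11 most closely over the 9 libraries, among 10736 genes with a mean of at least 5 CPM, were ITIH5 with a Pearson r of 0.992, IGFBP3 with 0.991, DUSP10 with 0.988, HIBCH with 0.986 and CXCL8 with 0.983. The points share their libraries and fall into 3 groups, so r describes mostly the difference between shCont and the others, and no test was made. ITIH5 was at 31.3, 4.46 and 3.57 FPKM in the group means and DUSP10 at 39.3, 20.9 and 19.6 FPKM, so genes with folds far smaller than that of IL11 had the same shape. Among the members, IL1B was the most like IL11, with r = 0.959 at rank 56, followed by IL24 with 0.887 at rank 330 and LIF with 0.868 at rank 418. CXCL1 had 0.761 and IL6ST -0.435.

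The genes near IL11 on chromosome 19 did not share its difference. Within 200 kb on either side, 31 genes are listed and 14 were tested, with log2 fold changes in shp16 against shCont from -0.97 to 0.57, beside -4.40 for IL11. PTPRH rose by 0.57 and BRSK1 fell by 0.87 (edgeR's quasi-likelihood test, adjusted p = 0.0459 and 0.0366), and the other 12 did not pass. These calls were lost in 8 and 6 of 9 leave-one-out fits, up to 0.136 without shp16 replicate 3 and 0.122 without shp16 replicate 2. None of the 14 was called in shp16+shATR against shp16, by edgeR at the adjusted or unadjusted p or by DESeq2.

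**Figure D5:**
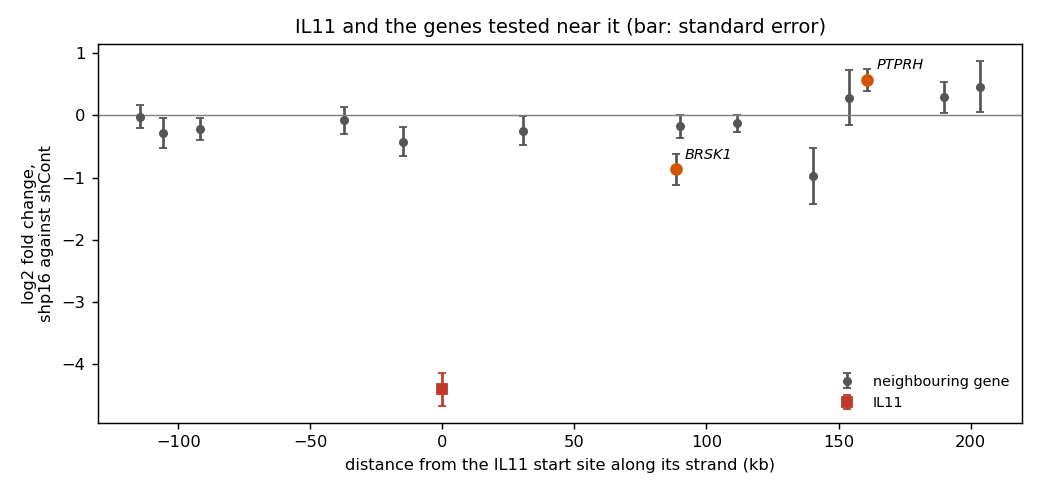
Log2 fold change in shp16 against shCont (vertical axis, bars are standard errors) of IL11 (red square) and the 14 tested genes near it (points; orange passed edgeR's test), by distance of their start sites from that of IL11 along its strand in kb. IL11 stands at -4.40, while its neighbours lie between -0.97 and 0.57.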

How the data were processed

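RNA was sequenced from SKMEL28 cells in 9 libraries, 3 for each of shCont, shp16 and shp16+shATR. The authors deposited raw read counts per gene, with no normalization, as well as FPKM values. A check found the FPKM to be the counts divided by gene length and library total, within a relative difference of 4.22e-07. The submitters' processing notes name STAR 2.6.1, DESeq2 2 and GRCh38, but the gene coordinates in the tables are those of GRCh37. The counting program and its strand setting are not given in the sources used here. Because 1 name heads all shp16+shATR columns of counts, those libraries are called a, b and c.

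Counts of all 9 libraries were filtered (filterByExpr), scaled (TMM) and tested in edgeR 4.0.16 under R 4.3.3, by quasi-likelihood with 1 coefficient per group, over 15776 genes with Benjamini-Hochberg adjustment at 0.05. The standard errors given with edgeR's log2 fold changes were derived from its test. Each is the absolute log2 fold change divided by the square root of the F statistic. FPKM values were used for levels and for exact permutation tests (scipy 1.17.1). Likeness to IL11 was computed on log2 CPM with a prior count of 2. Alternatives were DESeq2 1.42.0, limma 3.58.1 on log2(FPKM + 1) or log2(FPKM + 0.1), other scalings, filters and thresholds, fits without the group outside a comparison, a replicate block, and fits without each library.

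The members and gene lists were chosen with earlier results of these data known. Named are the members, CDKN2A and ATR, the called genes of each list (up to the 4 with the smallest p in each comparison), IL11RA, IL6R, LIFR, OSMR, IL1R1, IL1RAP, SOCS3, STAT3, CXCL8 and CXCL3, the 5 genes most like IL11 and genes within 200 kb of it. Cell type markers, overlapping genes and the few other genes that passed in a list are named beside them. The tables pair 182 symbols with more than 1 gene, none of them a member, and CXCL8 was matched by its Ensembl identifier. Intervals and limits from counts of 0 cover counting error only. For the list genes, shp16+shATR against shCont is given as counts of calls. A few list genes are counted but not reported here by name.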

Additional observations from a re-analysis of the deposited data

How the results depend on the processing

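Among the members, the sign turned for IL6ST in shp16 against shCont (-0.15 without shCont replicate 1), for IL1A in shp16+shATR against shCont (0.51 without shCont replicate 2, 0.16 without shp16+shATR library b) and for IL11 between the knockdown groups, a value that did not pass and ranged from -0.62 to 0.13 with a library left out: 0.0012 without shp16 replicate 2 and 0.13 without shp16+shATR library a. In shp16 against shCont, 2339 genes were called. This became 1186 with only the groups compared fitted, 1513 with limma and a replicate block, 423 with the replicate block on the counts, 994 at an adjusted p of 0.01 and 1344 to 4192 with a library left out, the most without shCont replicate 1. The 25 list genes became 14, 16, 7 and 12 in the same settings, and 14 to 34 with a library left out. In shp16+shATR against shp16, 981 genes were called. This became 2878 with only the groups compared, 1508 with DESeq2, 481 with limma and the block, 309 at 0.01 and 292 to 3223 with a library left out. The 15 list genes became 29, 9 with limma and the block, 7 at 0.01, and 6 to 29. The 2 members called became 3 with no filter on low counts (CXCL1 lower, adjusted p 0.0375 by edgeR), 1 with library size only, with limma at either pseudocount or with the block, and at 0.01, and 1 to 2 with a library left out. In shp16+shATR against shCont, 3724 genes became 1974 at 0.01 and 2354 to 5395, and 37 list genes became 30 to 49. The causes were not tested. Over the single genes, 339 values kept their direction and, where tested, their side of the threshold. Another 24 moved beyond the replicate spread, 2 of IL11 turned in sign between the knockdown groups, 2 passed in addition and 11 no longer passed. Passing applies only to shp16+shATR against shp16, as the members were not tested against shCont. Log2 values from FPKM with 1 added were closer to 0 for IL11 (-2.95), LIF, IL1A, IL1B and IL24 in shp16 against shCont, as that scale understates changes of low genes, but not for CXCL1 or IL6ST. No pairing by replicate number was seen: deviations of same-numbered libraries correlated from -0.303 to 0.289, with 2 of 9 pairs over 0.1. With 3 libraries per group the deviations are not independent, so this check cannot exclude a pairing. Depth limits IL6, CXCL2, CCL2 and IL1A most.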
